A study of Homo sapiens with 3 samples.

Results

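The integrated stress response genes that depend on the transcription factor ATF4 were examined in PANC-1 cells, an established human pancreatic ductal cancer line, after treatment with cantharidin (CAN) or okadaic acid (OA). The members were a list of 34 genes, chosen with earlier results of these data known, so counts of members below are descriptions. Their probes were found by matching the RefSeq accessions on the array to gene symbols. Probes were found for 33 of the 34 genes, out of 19699 genes named on the array, and ADM2 had none. There were 38 member probes, and 5 genes had 2 probes. RNA was taken from untreated control cells, from cells given 20 µM CAN and from cells given 20 µM OA, doses that the sample labels list for each agent, with 24 h of treatment. The treatment text names the dose before CAN only, so the OA dose rests on the label of that sample. All cells were of the same line, no other treatment is named for them, and a vehicle for the control is not given in the sources used here. Each group was measured on 1 array, so the differences below compare single arrays, without replicate spread and without p-values.

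The integrated stress response begins when one of several kinases phosphorylates the translation factor eIF2α, which lowers protein synthesis in general and favours translation of ATF4. ATF4 binds composite C/EBP-ATF elements, usually with another bZIP protein, and switches on genes for amino acid uptake, amino acid synthesis, transfer RNA charging and redox balance. The response also limits itself, since its target PPP1R15A brings protein phosphatase 1 (PP1) to eIF2α. CAN and OA both inhibit protein phosphatase 2A (PP2A), and the action of either agent on PP1 was not measured here. Because ATF4 is controlled largely at translation, the RNA signals below measure transcripts and not the amount of ATF4 protein.

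Promoter sequences are shown for the members in which a known ATF4-type motif lay before the gene start, to show the sequence behind the motif counts. The searched windows were 300 bases long, from 250 before to 50 after an annotated start in RefSeq on GRCh38.p14, and 26 of the 34 members had at least 1 window. The core of the composite element, TGATGNAA on either strand, was present in 6 of these 26 genes, against 4.46% of all 27305 genes with a window. The list was built from genes known as ATF4 targets, so this count is a description. The palindromic CRE motif TGACGTCA, bound by the ATF/CREB family, occurred in PPP1R15A alone among the members, against 2.25% of all genes. A further variant, TTGCGTCA, occurred in no member and in 0.648% of genes. No member held more than 1 of the 3 motifs. The 250 bases before the start are printed 5′ to 3′ on the strand of the gene, with the motif in capitals.
ASNS: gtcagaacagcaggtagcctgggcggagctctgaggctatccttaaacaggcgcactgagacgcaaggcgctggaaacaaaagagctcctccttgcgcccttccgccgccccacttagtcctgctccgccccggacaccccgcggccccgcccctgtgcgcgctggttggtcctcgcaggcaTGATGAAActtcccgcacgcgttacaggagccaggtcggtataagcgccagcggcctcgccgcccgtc
CHAC1: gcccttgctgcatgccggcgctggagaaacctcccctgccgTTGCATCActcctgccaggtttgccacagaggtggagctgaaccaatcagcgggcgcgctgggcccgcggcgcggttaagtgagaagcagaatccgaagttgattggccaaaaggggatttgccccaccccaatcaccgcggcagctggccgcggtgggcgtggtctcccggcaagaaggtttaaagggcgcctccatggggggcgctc
JDP2: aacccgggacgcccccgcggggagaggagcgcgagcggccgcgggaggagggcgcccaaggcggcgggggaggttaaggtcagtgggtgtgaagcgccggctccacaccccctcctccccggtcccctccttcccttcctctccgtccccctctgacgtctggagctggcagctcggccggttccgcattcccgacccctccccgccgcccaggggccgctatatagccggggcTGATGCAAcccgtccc
FGF21: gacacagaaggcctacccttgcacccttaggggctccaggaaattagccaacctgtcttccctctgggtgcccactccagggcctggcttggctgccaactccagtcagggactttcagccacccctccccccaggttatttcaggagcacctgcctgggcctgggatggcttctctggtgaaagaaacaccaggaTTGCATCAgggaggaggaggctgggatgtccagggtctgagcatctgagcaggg
PPP1R15A: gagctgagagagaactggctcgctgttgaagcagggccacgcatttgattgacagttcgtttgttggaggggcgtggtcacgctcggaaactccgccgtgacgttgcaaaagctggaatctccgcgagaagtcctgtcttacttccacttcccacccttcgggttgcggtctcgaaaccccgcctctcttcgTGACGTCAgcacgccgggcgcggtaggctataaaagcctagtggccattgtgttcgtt
The ASNS stretch (chr7:97872409-97872658, minus strand) carried the core 68 bases before the start. In CHAC1 (chr15:40953221-40953470, plus strand) the core lay on the opposite strand, beginning 209 bases before the start, and in FGF21 (chr19:48755274-48755523, plus strand) it lay on the opposite strand at 54 bases. JDP2 (chr14:75427772-75428021, plus strand) has several annotated starts, and the core was found 16 bases before one of them. The CRE of PPP1R15A (chr19:48872171-48872420, plus strand) began 58 bases before the start. In SLC3A2 and SLC7A1 the core lay within the first 50 transcribed bases and is not printed. A match describes these letters and is not evidence of binding.

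Signals are processed spot intensities as the scanner software gave them, and folds and log2 differences were taken after each array was divided by its own 75th percentile. A difference was called at 1.5-fold, the threshold of the study's array comparison. The 75th percentiles were 784, 713 and 936 intensity units on the control, CAN and OA arrays, so intensities alone understate or overstate a fold. The gap was widest between CAN and OA. Without scaling, 47.1% of all genes were called higher under OA than under CAN, against 29.5% with it. Between single spots of the same probe, the SD expected for a log2 difference between CAN and control was 0.09 above an intensity of 2000 and 0.32 below 200. For OA and control the values were 0.07 and 0.33. This spread covers spot noise only, and culture-to-culture variation was not measured. The lowest signal well above background was 35.0, 21.9 and 58.0 on the 3 arrays. The arrays lay on 1 slide, and slide position and group cannot be told apart. As a check of the labelled line, KRT7, KRT8, KRT18, KRT19, EPCAM and VIM were well above background on every array and CDH1 on the control array only. Of 14 markers of leukocytes, endothelium, liver, islet, acinar and muscle cells, 10 were also well above background on each array, with summed intensities of 11217, 10463 and 20146, against 458169, 468951 and 505830 for the line markers, and PECAM1, ALB, CPA1 and MYH11 were not. Single probes weighed heavily in these sums, and probes differ in brightness. VIM alone gave 311685 on the control array, and CD68 gave 2945, 3895 and 12731 on the 3 arrays. The part of the signals of these 14 markers in the results below was not tested. Less RNA per cell and fewer cells of a kind cannot be told apart in such samples.

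**Figure D1:**
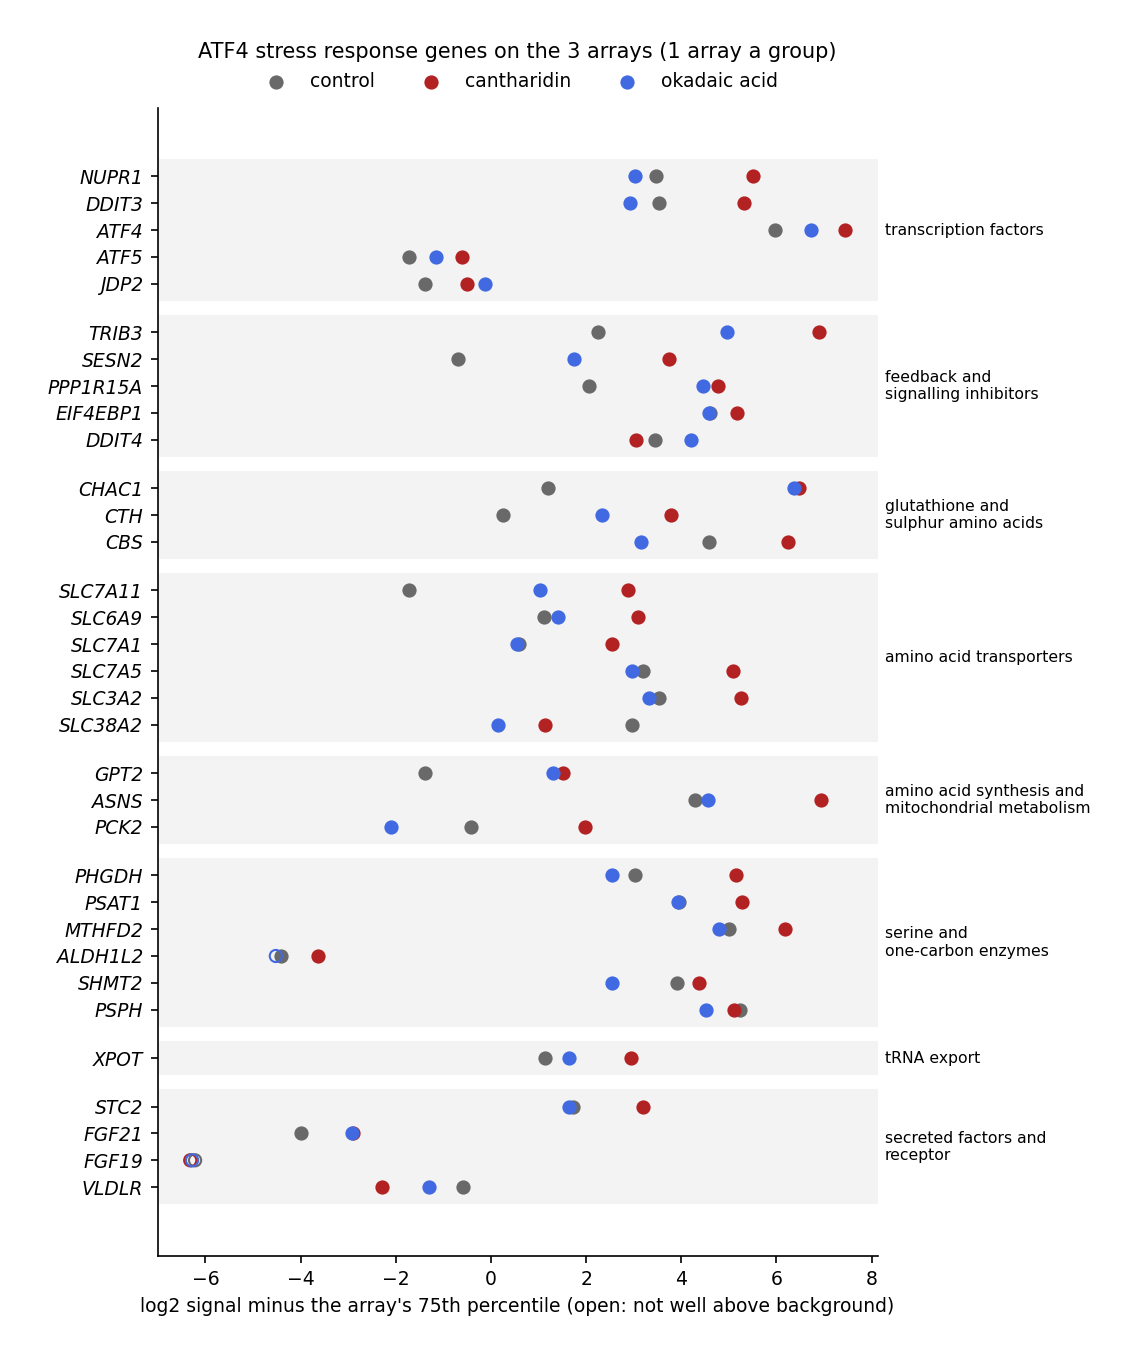
Scaled log2 signal of 33 members on the control (grey), cantharidin (red) and okadaic acid (blue) arrays, 1 array each; open circles were not well above background, and signals should be compared within a row only, since probes differ in brightness. For most members the red point lies to the right of the grey one, while the blue point lies near the grey one for many transporters and enzymes, and FGF19 is open on all 3 arrays.

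Under CAN, most of the ATF4 response was higher than in control cells. Of the 32 members that could be compared, 26 were at least 1.5-fold higher, 2 were at least 1.5-fold lower (SLC38A2 and VLDLR) and 4 differed by less (DDIT4, EIF4EBP1, PSPH and SHMT2). Among all 16644 genes compared, 27.5% were called higher and 34.1% lower. The median log2 difference of the members was 1.75, with quartiles of 1.04 and 2.47, beside a median of -0.16 over all genes. The largest differences were those of CHAC1, TRIB3, SLC7A11 and SESN2, which ranked 69, 132, 138 and 163 from the top of all genes compared.

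Under OA, the shares of members called higher and lower at 1.5-fold were nearer to those of all genes than under CAN. Of the 32 members compared, 11 were at least 1.5-fold higher, 7 were at least 1.5-fold lower and 14 differed by less. Those lower were SLC38A2, PCK2, CBS, SHMT2, VLDLR, PSPH and DDIT3. At 2-fold, the first 4 of these were lower, against 19.0% of all genes, and 9 members were higher, against 18.8%. Among all 16166 genes compared, 28.1% were called higher and 28.8% lower, against 34.4% and 21.9% of the members. The median log2 difference of the members was -0.02, beside 0.01 over all genes. The high end of the list was far from this median. CHAC1 ranked 54 from the top, SLC7A11 586, TRIB3 603 and GPT2 612, while SLC38A2 ranked 392 from the bottom. Without scaling between the arrays, 13 members were called higher and 4 lower, beside 36.6% and 22.4% of all genes. The median over all genes then moved to 0.26 and that of the members to 0.24. The comparisons of CAN and of OA with control used the same control array, and their values are therefore only set side by side.

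**Figure D2:**
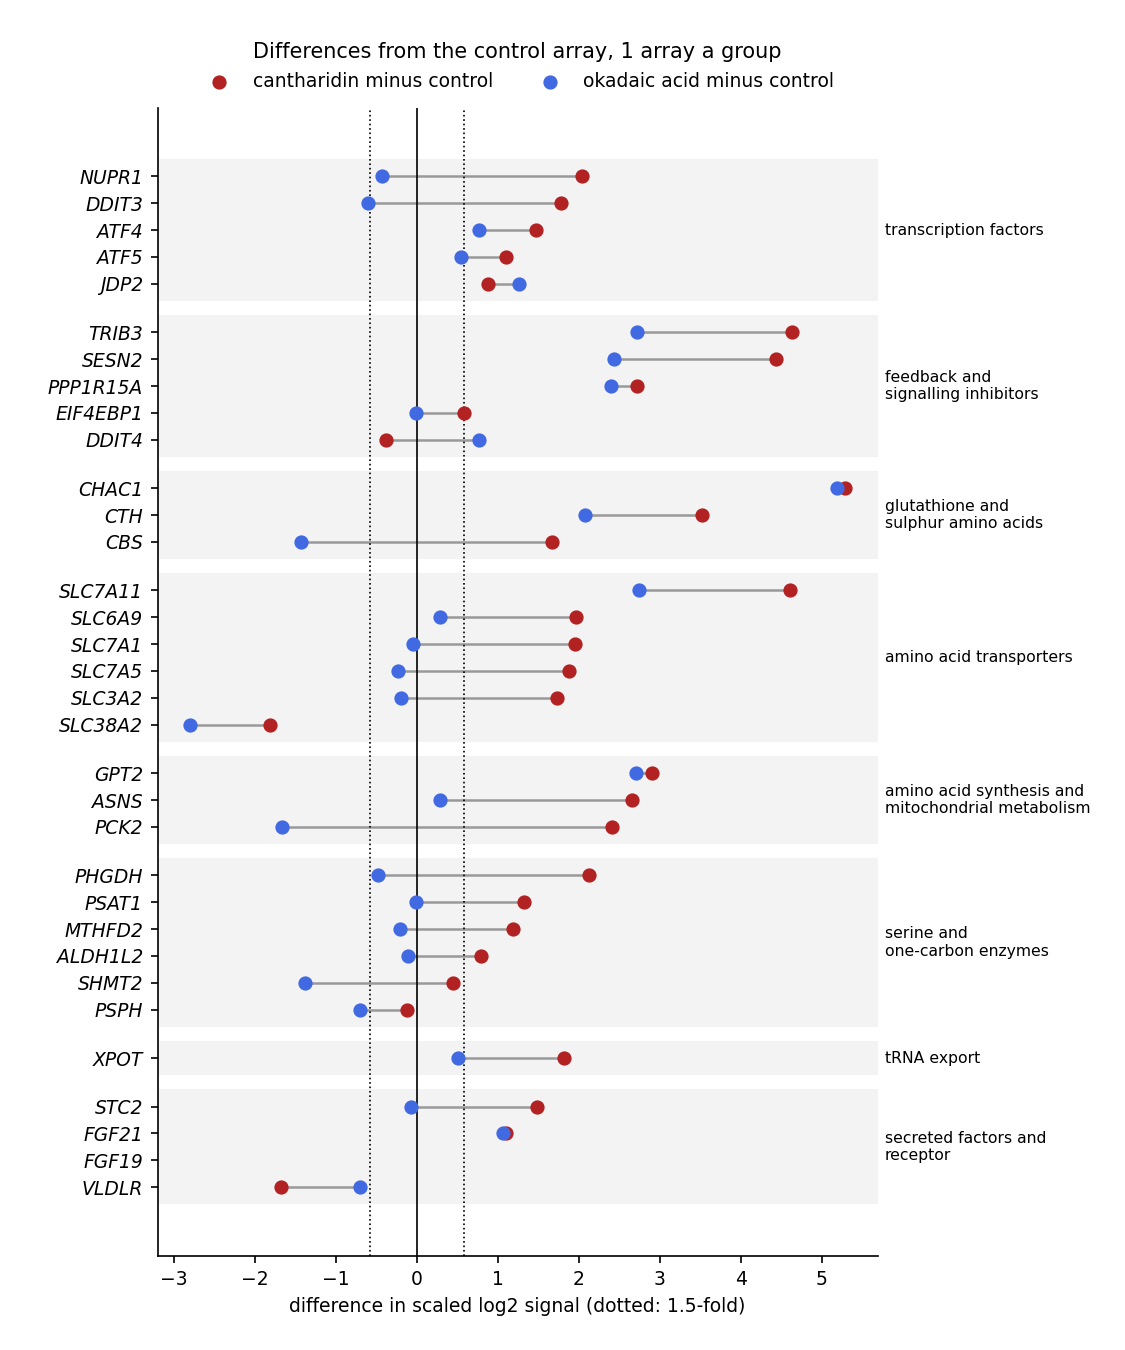
Difference in scaled log2 signal from the control array for each member under cantharidin (red) and okadaic acid (blue), joined by a line, with dotted lines at 1.5-fold; 1 array a group, and FGF19 has no point because it was not well above background. The 2 points nearly coincide for CHAC1, GPT2 and FGF21, and lie on opposite sides of 0 for PCK2, CBS and DDIT3.

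The transcription factors of the response came first. ATF4 had intensities of 48802 in control cells, 123268 under CAN and 99077 under OA. It was 2.78-fold higher under CAN and 1.70-fold higher under OA, and both treated signals lay above control. ATF5, a relative of ATF4 that is also regulated at translation, gave 240, 465 and 418. Its probe had replicate spots, with spot SDs of 0.07, 0.03 and 0.04 on the log2 scale, and it was 2.14-fold higher under CAN, while the 1.46-fold difference under OA was below the threshold. JDP2, a bZIP repressor of AP-1 and ATF sites, was the factor with the larger difference under OA. Its intensities were 300, 500 and 861, which gave 1.84-fold under CAN and 2.40-fold under OA.

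DDIT3 and NUPR1 showed another pattern. DDIT3 encodes CHOP, a bZIP factor linked to cell death in prolonged stress, and its intensities were 9122, 28537 and 7145 in control, CAN and OA cells. It was 3.44-fold higher under CAN and 1.52-fold lower under OA. The OA value lay at the edge of the threshold, and its log2 difference ranged from -0.73 to -0.35 over the processing alternatives, with the call lost in 5 of 10. NUPR1, a small stress-induced chromatin protein, gave 8704, 32437 and 7681. It was 4.10-fold higher under CAN and differed by 1.35-fold in the lower direction under OA, which did not reach the threshold. The CAN signal of both genes thus stood above the other 2 arrays.

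Of 5 feedback and signalling inhibitors, 3 were called higher under CAN and 4 under OA, beside 27.5% and 28.1% of all genes. TRIB3, a pseudokinase that is induced by ATF4 and CHOP and restrains them, rose from 3745 to 84584 under CAN and 29312 under OA. This was 24.9-fold and 6.56-fold. SESN2, a leucine sensor that inhibits mTORC1, had intensities of 488, 9557 and 3148, or 21.6-fold and 5.40-fold. For both genes the CAN signal was the highest and control the lowest. PPP1R15A, the eIF2α phosphatase subunit GADD34 whose promoter CRE is printed above, gave 3272, 19572 and 20609. The folds were 6.58 and 5.28, so the 2 treated signals were close. DDIT4, an inhibitor of mTORC1 also called REDD1, had 8506, 5906 and 17258, with spot SDs of 0.04, 0.04 and 0.05. It was 1.70-fold higher under OA and 1.31-fold lower under CAN, the latter below the threshold. EIF4EBP1, which blocks the cap-binding protein eIF4E, had intensities of 18984, 25817 and 22370. Its log2 difference was 0.58 under CAN, just short of the call, and -0.02 under OA. It was called under CAN in 4 of 10 alternatives.

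Genes of glutathione and sulphur amino acid metabolism held the largest member difference. CHAC1, an enzyme that degrades glutathione, had intensities of 1792, 63440 and 77800, which was 39.0-fold higher under CAN and 36.4-fold higher under OA. Its second, dimmer probe gave 145, 1561 and 1441, or 11.9-fold and 8.34-fold. Both probes thus placed CHAC1 well above control under each agent, by different amounts. CTH, which makes cysteine from cystathionine, had 935, 9748 and 4700, or 11.5-fold and 4.21-fold. CBS, the enzyme before CTH in the same route, did otherwise. Its intensities of 18781, 54123 and 8295 were 3.17-fold higher under CAN and 2.70-fold lower under OA, so that control lay between the treated arrays. The annotation holds a near-identical copy of CBS, named CBSL, and the probe may not tell them apart.

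Of 6 amino acid transporters, 5 were called higher under CAN, and 1 under OA, beside 27.5% and 28.1% of all genes. SLC7A11, the cystine and glutamate exchanger, had intensities of 239, 5283 and 1915, which was 24.3-fold under CAN and 6.71-fold under OA. The next 4 passed the threshold under CAN and not under OA. SLC7A5, the large neutral amino acid transporter, gave 7231, 24176 and 7351 (3.68-fold higher, then 1.17-fold lower). SLC3A2, the heavy chain that pairs with SLC7A5 and SLC7A11, gave 9043, 27159 and 9405 (3.31-fold higher, then 1.15-fold lower). For both partners the OA signal stayed close to control. SLC7A1, which carries arginine and lysine, had 1182, 4144 and 1364, and SLC6A9, a glycine transporter, 1710, 6044 and 2490. These were 3.86-fold and 3.89-fold higher under CAN, and differed by 1.03-fold and 1.22-fold under OA. The dimmer probe of SLC6A9 was 3.36-fold higher under CAN and not well above background under OA. SLC38A2, a neutral amino acid transporter, ran against the others. Its intensities fell from 6090 in control cells to 1567 and 1043, and the second probe from 2569 to 630 and 583. The folds were 3.53 and 6.97 lower on the brighter probe and 3.71 and 5.26 lower on the other.

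Among the other amino acid and mitochondrial enzymes, GPT2, a mitochondrial alanine aminotransferase, had intensities of 299, 2034 and 2323. It was 7.48-fold higher under CAN and 6.50-fold higher under OA. ASNS, which makes asparagine and is among the best known ATF4 targets, had 15332, 87681 and 22198. This was 6.29-fold under CAN but 1.21-fold, below the threshold, under OA. PCK2, the mitochondrial form of PEP carboxykinase, differed widely between the agents. Its intensities were 584, 2811 and 219, or 5.30-fold higher under CAN and 3.18-fold lower under OA. A second PCK2 probe for another transcript gave 102, 162 and 65.4, or 1.76-fold higher and 1.85-fold lower, so both probes ran the same ways.

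Serine and one-carbon enzymes were called higher under CAN for 4 of 6 genes and under OA for none. Of all genes, 27.5% were called higher under CAN and 28.1% under OA. Under OA, 2 of the 6 were called lower, beside 28.8% of all genes. PHGDH, the first enzyme of serine synthesis, had 6373, 25308 and 5447, which was 4.37-fold higher under CAN and 1.40-fold lower, below the threshold, under OA. PSAT1, the second step, had 12086, 27417 and 14281, or 2.50-fold higher and a difference of 1.01-fold. PSPH, the last step, did not follow them, with 29554, 24545 and 21588. It differed by 1.09-fold under CAN and was 1.63-fold lower under OA. MTHFD2, a mitochondrial folate enzyme, gave 25053, 51724 and 25931 with spot SDs of 0.08, 0.11 and 0.09 on the log2 scale. It was 2.27-fold higher under CAN and differed by 1.15-fold under OA. SHMT2, which turns serine into glycine in mitochondria, gave 11858, 14705 and 5436, or 1.36-fold under CAN, below the threshold, and 2.60-fold lower under OA. ALDH1L2, a mitochondrial folate dehydrogenase, was close to the floor of the arrays at 36.9, 57.7 and 40.8. It was 1.72-fold higher under CAN, which fell below the threshold after another background correction, and was not well above background under OA.

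XPOT, which exports transfer RNA from the nucleus, had 1726, 5495 and 2932, or 3.51-fold under CAN and 1.42-fold, below the threshold, under OA. Among secreted factors, STC2, a stress-induced glycoprotein, had 2583, 6542 and 2936 and was 2.79-fold higher under CAN, with a difference of 1.05-fold under OA. FGF21, a hormone released in metabolic stress, was dim at 49.5, 96.0 and 123, and was 2.14-fold and 2.09-fold higher. At this brightness the spot noise was large, and the OA call was lost with another background correction. FGF19 was nowhere well above background, with intensities of 10.6, 8.93 and 12.1, and has no fold. VLDLR, a lipoprotein receptor, depended on the probe. Its brighter probe gave 518, 147 and 379, or 3.21-fold lower under CAN and 1.63-fold lower under OA. The probe for another VLDLR transcript was well above background under OA alone, at 112, which was at least 2.69-fold higher than control.

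The direct comparison of OA with CAN asked which members differed between the treated arrays, without the control array. Of 32 members, 23 were at least 1.5-fold lower under OA than under CAN, 2 were at least 1.5-fold higher (DDIT4 and VLDLR) and 7 differed by less. Among all 16200 genes compared, 22.3% were called lower and 29.5% higher. At 2-fold, 1 member (DDIT4) was higher, against 16.5% of all genes. The median log2 difference of the members was -1.42, beside 0.13 over all genes. PCK2 was 16.8-fold lower under OA by its brighter probe and 3.26-fold by the other. CBS was 8.57-fold lower, PHGDH 6.10-fold, NUPR1 5.55-fold, DDIT3 5.25-fold and ASNS 5.19-fold. These ranked from 73 (PCK2) to 381 (ASNS) from the bottom of all genes. By their brighter probes, all 6 transporters were called lower under OA, between 1.97-fold for SLC38A2 and 4.32-fold for SLC7A5. The second SLC38A2 probe was 1.42-fold lower, which did not reach the threshold. ATF4 itself was 1.63-fold lower under OA, a call that was lost in 3 of 10 alternatives. CHAC1, FGF21, GPT2, PPP1R15A and JDP2 differed by 1.07, 1.02, 1.15, 1.25 and 1.31-fold between the agents, and ATF5 and PSPH by 1.46-fold and 1.49-fold. ALDH1L2 was not well above background under OA, at least 1.31-fold lower, and with this bound 22 members were called lower.

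**Figure D3:**
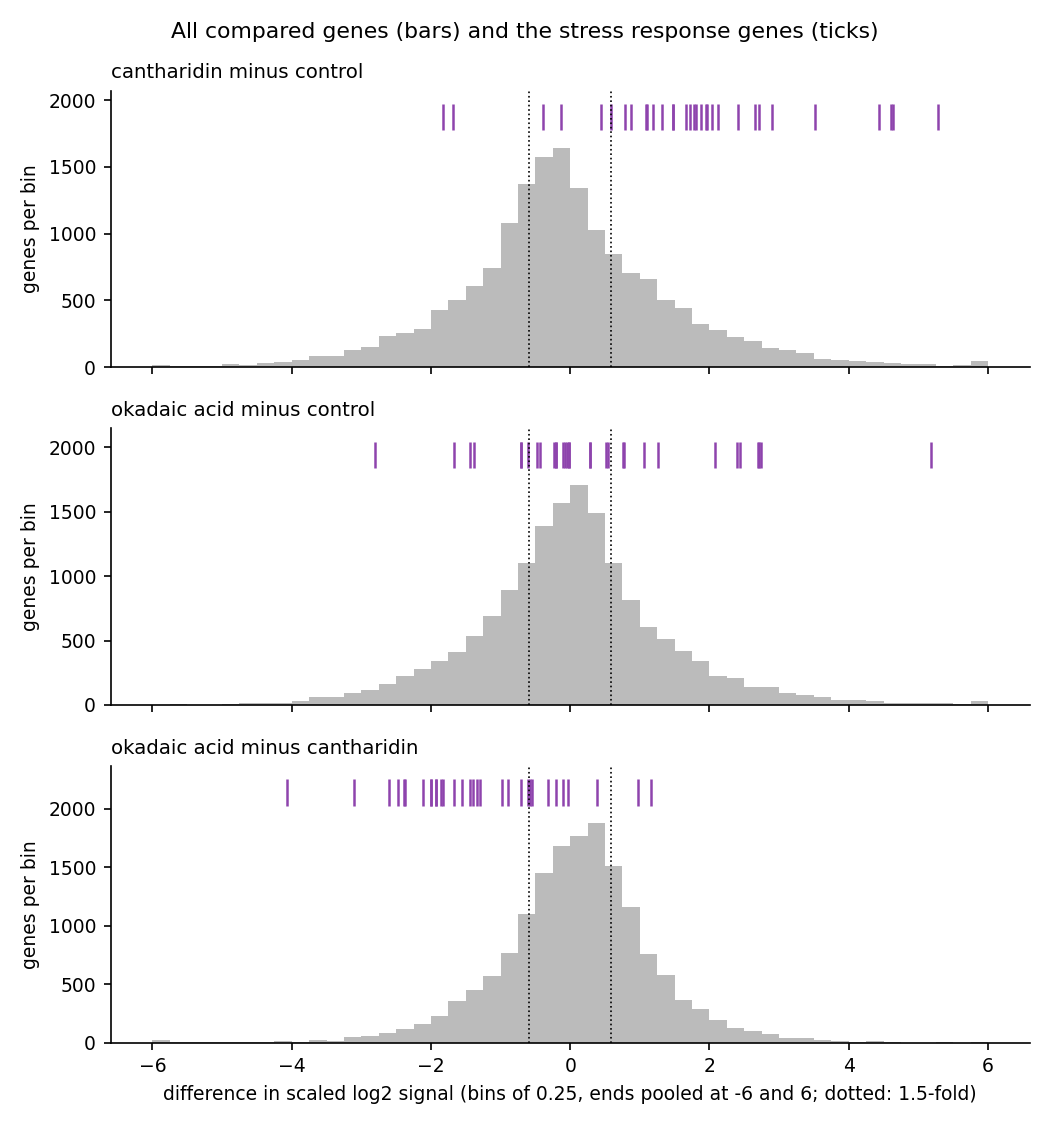
Histograms of the difference in scaled log2 signal over all genes compared (grey bars, genes per bin of 0.25) with each member as a purple tick, for the 3 comparisons; dotted lines mark 1.5-fold. The ticks lie mostly to the right under cantharidin (26 of 32 called higher), spread around 0 under okadaic acid, and lie mostly to the left for okadaic acid against cantharidin (23 of 32 called lower).

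All members with a printed or found motif were called higher under CAN, beside 26 of all 32 members compared and 27.5% of all genes. Under OA these members did not share a single pattern. Under CAN the log2 differences were 2.65 for ASNS, 5.28 for CHAC1, 1.72 for SLC3A2, 1.95 for SLC7A1, 0.88 for JDP2 and 1.10 for FGF21, all above the threshold. Under OA they were 0.28, 5.18, -0.20, -0.05, 1.27 and 1.06 in the same order. PPP1R15A, with the CRE, showed 2.72 and 2.40.

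The genes around the response were described from 4 further lists, whose counts stand beside the shares of all genes given above (27.5% higher and 34.1% lower under CAN, 28.1% and 28.8% under OA). Of 18 eIF2 kinase and machinery genes, 10 were called higher and 5 lower under CAN, and 6 higher and 5 lower under OA, which was 55.6% and 27.8% of the list under CAN and 33.3% and 27.8% under OA. The OA shares were close to those of all genes. Among the eIF2α kinases, EIF2AK3 (PERK, the kinase of the endoplasmic reticulum) was 4.11-fold higher under CAN and 7.79-fold higher under OA. EIF2AK4 (GCN2, the amino acid sensor) was 4.24-fold lower under CAN and differed by 1.38-fold under OA. EIF2AK1 (HRI, the heme-regulated kinase) was 2.07-fold lower under CAN and differed by 1.34-fold under OA, and EIF2AK2 (PKR, the kinase of double-stranded RNA) differed by 1.24-fold and 1.44-fold. The kinase transcripts thus differed in direction. DNAJC3, an inhibitor of PERK, was 6.07-fold and 6.18-fold higher, and PPP1R15B, the constitutive counterpart of PPP1R15A, 2.24-fold and 5.14-fold higher. EIF2B3, a subunit of the eIF2 exchange factor, was 5.80-fold and 1.99-fold lower. IMPACT, of the same list, was 1.97-fold higher under CAN. Under OA it was not well above background, at least 7.81-fold lower than control.

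Of 11 bZIP partners compared, 7 were called higher under CAN (63.6%) and 8 under OA (72.7%), and none lower. ATF3, a target and partner of ATF4, was 84.9-fold higher under CAN and 12.8-fold higher under OA, and CEBPB, the usual C/EBP partner, 2.87-fold and 2.07-fold. ATF3 had 4 probes, and only the brightest is given, as for every gene of these further lists. CEBPA, a C/EBP factor of differentiation, was 9.11-fold and 124-fold higher, from a control signal of 65.6, at which spot noise was large. FOS, an AP-1 subunit, was 2.85-fold and 17.7-fold higher, and ATF2, a stress kinase target, 3.54-fold and 1.94-fold. Of 29 other genes known as ATF4 or CHOP targets, 15 were called higher and 8 lower under CAN, and 11 higher and 5 lower under OA. These were 51.7% and 27.6% of the list under CAN, and 37.9% and 17.2% under OA. In this list GARS1, a glycyl-tRNA synthetase, was 7.54-fold and 2.62-fold higher, MAP1LC3B, an autophagosome protein, 7.08-fold and 4.42-fold, and GADD45A, a growth arrest gene, 5.81-fold and 2.20-fold. TNFRSF10B, a death receptor, was 7.49-fold higher under CAN and differed by 1.44-fold under OA, while AARS1, an alanyl-tRNA synthetase, was 4.80-fold and 5.07-fold lower. The median log2 difference of this list was 0.65 under CAN and 0.39 under OA, below the 1.75 and above the -0.02 of the members.

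Of 17 genes of the ATF6 and XBP1 branch of the unfolded protein response, 10 were called higher and 1 lower under CAN, and 8 higher and 2 lower under OA. The shares called higher were 58.8% and 47.1%, those called lower 5.88% and 11.8%, and the median log2 differences 0.80 and 0.53. HSPA5 (BiP, the main chaperone of the endoplasmic reticulum) was 6.42-fold higher under CAN and 2.10-fold higher under OA. XBP1, the factor activated by IRE1 splicing, was 4.97-fold higher under CAN and differed by 1.12-fold under OA, whereas ATF6, the membrane-bound sensor that becomes a transcription factor, was 2.38-fold and 3.39-fold higher. DNAJB11, a co-chaperone of HSPA5, was 1.74-fold and 2.59-fold higher and SEC61B, a translocon subunit, 2.45-fold and 2.32-fold higher.

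**Figure D4:**
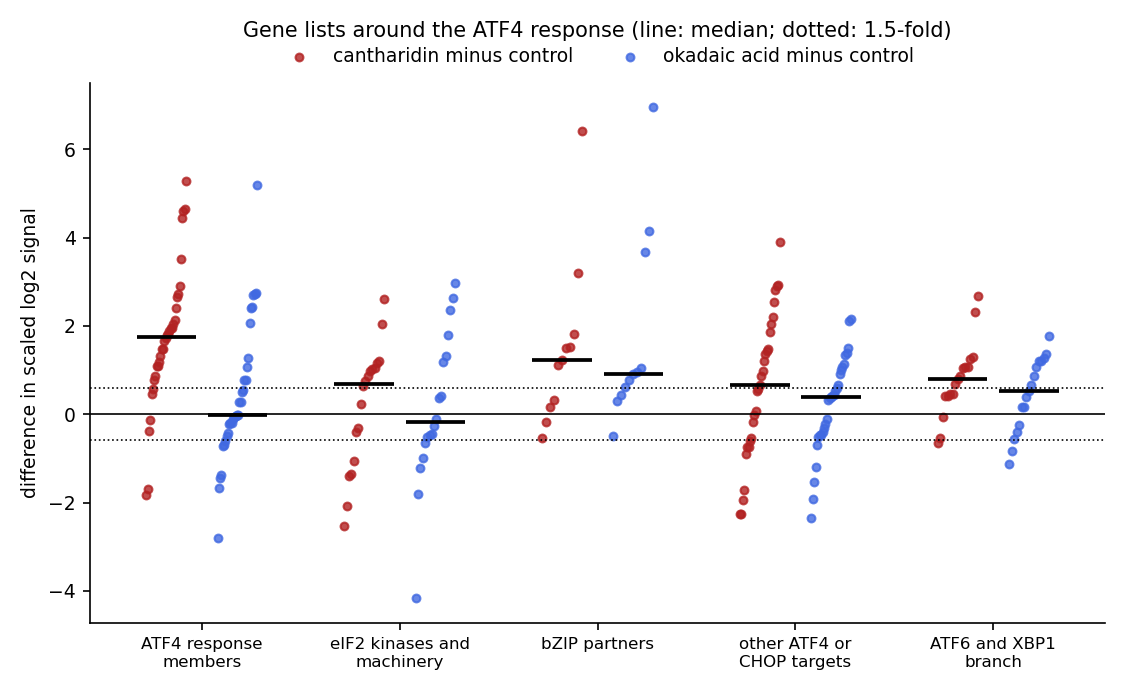
Difference in scaled log2 signal from control for the members and 4 further gene lists under cantharidin (red) and okadaic acid (blue); each point is a gene, black lines are medians and dotted lines 1.5-fold. The gap between the medians of the agents is widest for the members (1.75 and -0.02).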

How the data were processed

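Control, CAN and OA cells, grouped by sample title, were each profiled on 1 Agilent human array with Cy3 label. The authors deposited spot intensity values from Feature Extraction 11.0.1.1, background-subtracted and detrended inside each array but not scaled across arrays, with hg19 annotation. The other flags that the authors deposited mark outlier spots, saturated spots and spots clearly over background. No probe used was saturated. The authors also deposited a normalized log2 table of 30923 probes, with its method not given in the sources used here. Each column correlated best with its own array (r of at least 0.998), and the column medians were 7.74, 7.74 and 7.75. It served as an alternative.

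Here spots with outlier flags were dropped, the log2 intensities of the remaining spots of a probe were averaged, and the 75th percentile of each array was subtracted. Of 34041 probes, 25705 were named through RefSeq accessions of GRCh38.p14 without version. A gene was represented by its brightest probe over the 3 arrays and compared where either array of the pair held it well above background. The call was 1.5-fold, with no test, pseudocount or p-value. Where 1 array was not well above background, a fold is given as "at least", taking for the dim array its floor or the probe's own signal, whichever was higher. Every member was described, and context lists were described by counts, the 4 eIF2 kinases and the 5 largest differences measured on both arrays. IMPACT, SLC1A4 and LURAP1L, each not well above background on some array, were added. EIF2S3 had no matched probe, and NFE2L2 was not well above background. Members and lists were chosen with earlier results of these data known. There were 11 alternatives fixed at the start and 1, the dim signals at the floor, chosen after seeing the data. The counting was tested on simulated data. The number of arrays limits the precision. Python 3.11.15, numpy 2.4.6, pandas 2.3.3, matplotlib 3.10.9, R 4.3.3 and limma 3.58.1 were used.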

Additional observations from a re-analysis of the deposited data

Results flagged for a closer look

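DDIT3, PCK2 and CBS passed 1.5-fold in opposite directions under CAN and OA, with 1 array a group, and the differences were not tested. The log2 difference of OA minus CAN was -2.39 for DDIT3, -4.07 for PCK2 and -3.10 for CBS. Over the alternatives it lay between -2.54 and -2.00 for DDIT3, between -4.38 and -2.89 for PCK2, the latter with the median over its 2 probes, and between -3.25 and -2.71 for CBS. For DDIT3 the OA side of the contrast with control was at the edge of the threshold.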

How the results depend on the processing

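With 1 array a group, no replicate could be left out and no paired analysis was possible because each group has a single sample. Of 957 recomputed member values, 924 kept their direction and their side of 1.5-fold, 17 dropped below it, 15 passed it and 1 reversed. The one that reversed was VLDLR under OA against control, at 1.40 on the log2 scale with the median over its probes in place of -0.71, since its 2 probes differ in direction. Of 102 recomputed counts and medians, 3 moved by more than 1.5 times. Members called lower under OA against control numbered 4 without scaling and 4 at a 2-fold threshold, in place of 7, and members called higher under OA than under CAN numbered 1 at 2-fold, in place of 2. The median of the members under OA against control ranged from -0.14 to 0.24 and that of all genes from -0.11 to 0.26. The median under CAN ranged from 1.62 to 1.82 and that of OA against CAN from -1.57 to -1.02. Signals under 200, as for ALDH1L2, FGF21 and the dimmer probes, had the least precision. So did those of CEBPA (65.6) and EIF2AK3 (111) in control cells and of EIF2AK4 under CAN (107).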
